A study of Homo sapiens with 47 samples.

Results

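The factors that build the histone locus body and make, use and destroy replication-dependent histone mRNA were described in HEK293T cells and in an EAF1-mutant line made from them. They are 9 genes of the 58395 in the count table, taken by symbol: NPAT, CASP8AP2, HINFP, SLBP, LSM10, LSM11, ZNF473, RNU7-1 and ERI1. RNA was depleted of ribosomal RNA, which keeps transcripts without a poly(A) tail, and 3 libraries of each group were sequenced. HEK293T is a human embryonic kidney cell line, and the wild-type group is that line without the mutation. The EAF1-mutant group is 1 clone made by CRISPR knock-in, in which both alleles of EAF1 carry alanines in place of residues near the C-terminus that contact the Mediator subunit MED26, so what belongs to the mutation and what belongs to the clone cannot be told apart. Total counts were 59137210, 52541541 and 55637032 in wild type and 57198018, 53369621 and 66611451 in the mutant. The study's methods speak of biological replicates for its experiments in general, but no label says that the libraries of a group came from separate cultures, so p-values measure only the spread between these libraries, which may be technical.

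Histone mRNAs made in S phase are the main metazoan mRNAs that end in a stem-loop in place of a poly(A) tail. Their genes gather in the histone locus body, where NPAT, a substrate of cyclin E and CDK2, and the large protein CASP8AP2, also called FLASH, concentrate, and where HINFP activates histone H4 genes. SLBP binds the stem-loop, the U7 small nuclear ribonucleoprotein directs the cut downstream of it, and the exonuclease ERI1 trims the stem-loop when the mRNA is destroyed at the end of S phase.

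The RNA member is shown first, with its sequence and the copies that resemble it. RNU7-1 encodes the U7 small nuclear RNA (chr12:6943816-6943878 in GRCh38, plus strand, 63 bases, an annotated snRNA exon). Its sequence, from the GENCODE transcripts, has in capitals the letters CTCTTT (bases 12 to 17), part of the stretch that pairs with histone pre-mRNA, and the letters AATTTGTC (bases 21 to 28) of the site bound by the ring of Sm and Lsm proteins.
RNU7-1: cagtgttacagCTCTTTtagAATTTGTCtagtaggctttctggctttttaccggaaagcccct
The count table holds 148 other RNU7 copies, annotated as snRNA with symbols that end in P as those of pseudogenes do, and 98 of them had a count. None of the 148 was identical to RNU7-1, the nearest differed by 5 edits, and 63 held both stretches.

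The labelled cell line was checked against marker genes. Of 8 genes that HEK293T cells are known to express, 7 had a mean over 1 CPM (CPM is a count scaled to the library size, which edgeR's TMM method adjusted), and PAX2 lay between 0.574 and 1.08 CPM. The summed level of the 8 was 510, 522 and 537 CPM in the wild-type libraries and 315, 314 and 321 CPM in the EAF1-mutant libraries. VIM was the most abundant of them, with 374, 376 and 391 CPM in wild type and 197, 197 and 204 CPM in the mutant. NEFM was also lower, with 56.2, 65.9 and 65.1 against 24.6, 25.2 and 25.6 CPM. ENO2 went the other way, with 6.54, 6.47 and 6.46 CPM in wild type and 24.9, 25.8 and 24.0 CPM in the mutant. Of 10 reported genes of blood, liver, endothelium, muscle and mature kidney tubule, UMOD was at 0 in all 6 libraries, and ACTA1 was the most abundant, between 0.297 and 0.827 CPM. Their summed level was 0.690, 0.732 and 0.785 CPM in wild type and 0.974, 1.35 and 1.26 CPM in the mutant. Some of the markers differ between the groups, in both directions, and their part in the results on the histone factors was not tested.

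EAF1 itself, the mutated gene (ENSG00000144597), was counted at 57.5, 58.4 and 56.5 CPM in wild type and at 19.7, 17.9 and 18.8 CPM in the mutant. A point mutation leaves its RNA countable, so this level does not check the labels. The 16 protein-coding genes that start within 1 Mb of EAF1 had a median log2 fold change of -1.30, and 15 of them were lower.

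All 9 histone factors passed edgeR's filter on low counts, as did 28025 genes in all. The threshold was an adjusted p under 0.01 together with a log2 fold change over 0.5 in size. With it edgeR's quasi-likelihood test called 0 of the 9 members, against 5695 of 28025 tested genes (20.3%), of which 2624 (9.36%) were lower and 3071 (11.0%) higher in the mutant. With library totals in place of TMM, 1840 genes were lower and 4169 higher, and again 0 members passed. DESeq2 also called 0 of the 9, against 5056 of the 28025 genes (18.0%). Without the fold minimum, 4 of the 9 had an adjusted p under 0.01, against 41.5% of all tested genes, a share near the background. Of these 4, 3 were higher, against 20.5% of all tested genes, and 1 was lower, against 21.1%. At an unadjusted p under 0.05 there were 6 of 9, against 56.2%. The median log2 fold change of the 9 members was 0.00, against 0.01 for all tested genes. The median size of the change, whatever its sign, was 0.15 for the members and 0.28 for all tested genes. The tested genes were not matched to the members in expression level. The libraries of the groups did not overlap for 6 of the 9 members, against 57.3% of tested genes. Of the 6, 3 were higher in the mutant, against 29.2% of tested genes, and 3 lower, against 28.1%.

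**Figure D1:**
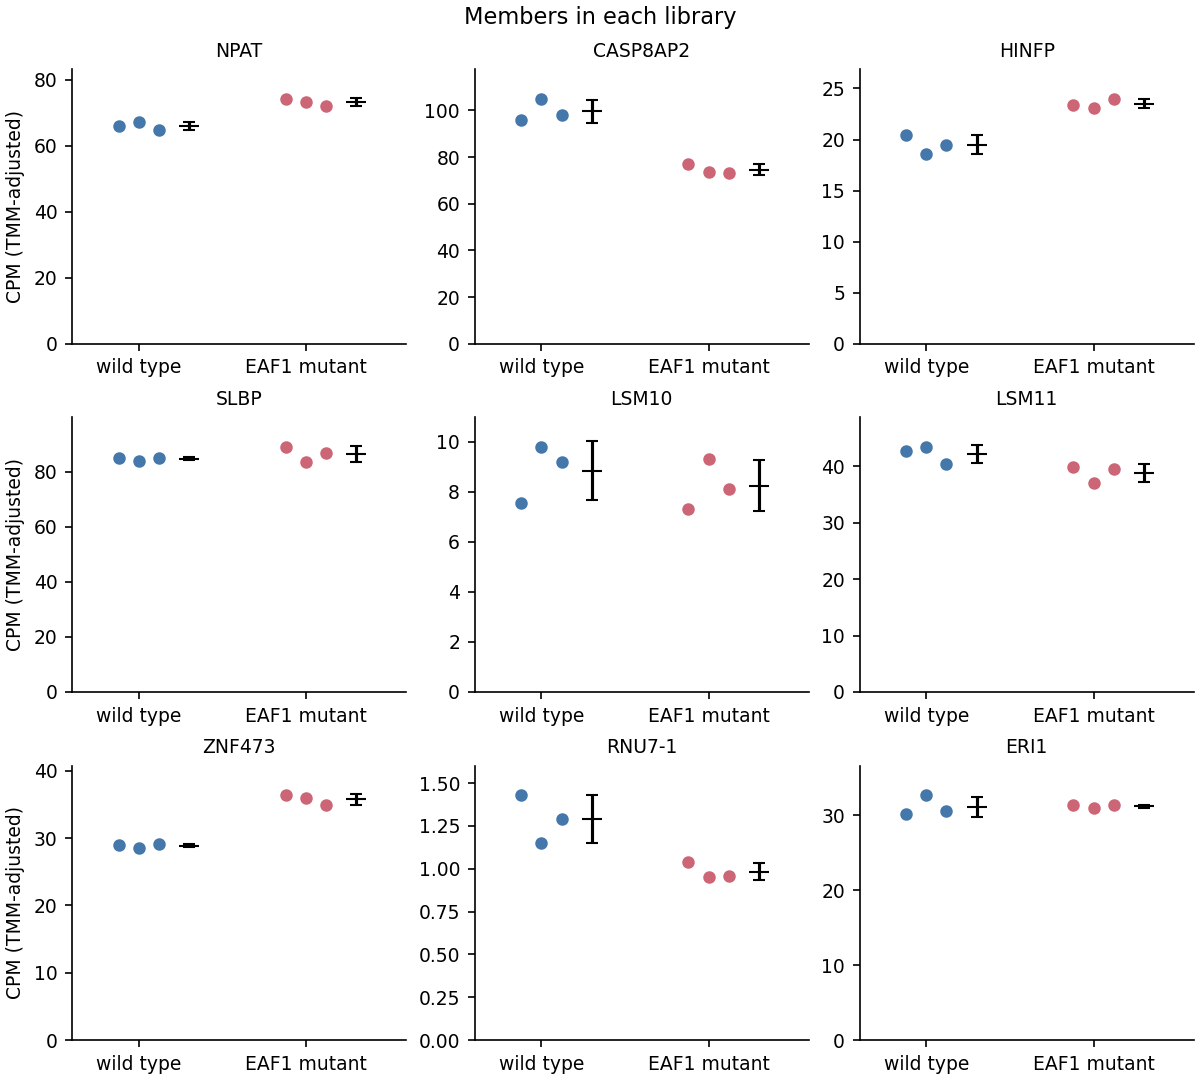
Each panel plots 1 member, with CPM adjusted by TMM on the vertical axis from 0, and each point is 1 library of wild type (blue) or EAF1 mutant (red); the bar beside the points is the mean with the SD (n = 3). CASP8AP2, LSM11 and RNU7-1 lie lower in all 3 mutant libraries, NPAT, HINFP and ZNF473 lie higher, and SLBP, LSM10 and ERI1 overlap.

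The activators and scaffold come first. CASP8AP2 (ENSG00000118412, chromosome 6), the FLASH protein that joins LSM11 at the histone pre-mRNA, had 95.8, 105 and 97.9 CPM in wild type and 77.2, 73.4 and 73.0 CPM in the mutant. Every mutant library lay under every wild-type one. The log2 fold change was -0.42 (standard error 0.04, 95% interval -0.51 to -0.33, adjusted p = 1.11e-08 by edgeR's quasi-likelihood test with Benjamini-Hochberg adjustment), short of the fold minimum. With TMM and all 6 libraries it was the largest in size among the 9 members, but with library totals ZNF473 (0.42) and HINFP (0.38) exceeded it (-0.30), and without wild type replicate 2 RNU7-1 did (-0.48 against -0.39). In a bulk RNA sample, fewer cells at the stage that makes an RNA and less of it in each cell cannot be told apart.

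NPAT (ENSG00000149308, chromosome 11), the coactivator that organizes the body, had 65.9, 67.2 and 64.9 CPM in wild type and 74.3, 73.4 and 72.0 CPM in the mutant. The groups did not overlap, and all 3 mutant libraries were higher. The log2 fold change was 0.15 (standard error 0.04, 95% interval 0.07 to 0.23, adjusted p = 0.0019 by edgeR's quasi-likelihood test with Benjamini-Hochberg adjustment). This call was lost without any of 3 libraries: the adjusted p from edgeR was 0.0277 without wild type replicate 3, 0.0103 without EAF1 mutant replicate 1 and 0.0107 without EAF1 mutant replicate 2. The log2 fold change in these 3 fits was 0.12, 0.14 and 0.15. With library totals in place of TMM the value was larger, 0.27 (adjusted p = 2.87e-06 from edgeR).

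HINFP (ENSG00000172273, chromosome 11), a zinc finger protein that binds H4 promoters, had 20.4, 18.6 and 19.5 CPM in wild type and 23.4, 23.1 and 24.0 CPM in the mutant. All mutant libraries were above the wild-type range. Its log2 fold change was 0.27 (standard error 0.05, 95% interval 0.16 to 0.37, adjusted p = 8.44e-05 by edgeR's quasi-likelihood test with Benjamini-Hochberg adjustment).

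NPAT and ATM, which encodes a DNA damage kinase, start 406 bases apart on opposite strands and share a promoter region. ATM had 195, 198 and 185 CPM in wild type and 186, 184 and 181 CPM in the mutant, and the groups overlapped. Its log2 fold change was -0.07 (95% interval -0.15 to 0.00, adjusted p = 0.111 by edgeR's quasi-likelihood test with Benjamini-Hochberg adjustment). The ratio of NPAT to ATM CPM was 0.338, 0.338 and 0.350 in wild type and 0.398, 0.400 and 0.398 in the mutant. The mutant ratios were all higher, with a two-sided exact permutation p of 0.1, the smallest that 3 against 3 libraries allow.

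The promoters of NPAT and CASP8AP2 are shown because these scaffold genes differed in opposite directions. RefSeq's table (GRCh38.p14) gave a promoter, 250 bases before to 50 after the start, for 6 of the 9 members. They were searched on both strands for TTTNGCGC, letters that E2F factors can bind, and for CCAAT. The capitals mark these letters.
NPAT (chr11:108222589-108222888, minus strand): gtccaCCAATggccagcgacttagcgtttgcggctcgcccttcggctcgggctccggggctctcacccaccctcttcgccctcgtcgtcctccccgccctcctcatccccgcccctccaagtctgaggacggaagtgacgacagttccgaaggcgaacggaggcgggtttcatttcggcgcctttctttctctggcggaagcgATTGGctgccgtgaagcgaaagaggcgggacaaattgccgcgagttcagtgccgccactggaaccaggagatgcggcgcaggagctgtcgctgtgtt
CASP8AP2 (chr6:89829630-89829929, plus strand): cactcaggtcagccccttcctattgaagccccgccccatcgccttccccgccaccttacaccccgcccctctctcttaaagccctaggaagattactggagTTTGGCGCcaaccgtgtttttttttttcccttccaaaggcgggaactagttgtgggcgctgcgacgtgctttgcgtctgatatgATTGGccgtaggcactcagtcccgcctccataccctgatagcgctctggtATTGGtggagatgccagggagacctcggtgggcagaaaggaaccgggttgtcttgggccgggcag
TTTNGCGC stood in 1 of the 6 member promoters, that of CASP8AP2, and in 1.79% of 35116 promoters in the table. CCAAT stood in 4 of the 6, those of NPAT, CASP8AP2, HINFP and LSM10, and in 34.6% of all. A match is a description of letters and not a site. Other letters that E2F factors may bind were not searched, so a promoter without a match may still hold some.

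SLBP (ENSG00000163950, chromosome 4), the protein that binds the stem-loop through processing, export and translation, had 85.1, 84.0 and 84.9 CPM in wild type and 89.0, 83.5 and 86.6 CPM in the mutant. The groups overlapped. Its change was 0.03 on the log2 scale with a 95% interval of -0.05 to 0.11 (adjusted p = 0.553 by edgeR's quasi-likelihood test with Benjamini-Hochberg adjustment). Scaling set this value: with library totals in place of TMM it was 0.14 with an adjusted p of 0.00268 from edgeR, where the median of all tested genes moved from 0.01 to 0.13.

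Of the U7 particle, ZNF473 (ENSG00000142528, chromosome 19), also called ZFP100, a zinc finger protein that contacts LSM11 and the SLBP-bound stem-loop, had 29.0, 28.6 and 29.1 CPM in wild type and 36.4, 36.0 and 34.9 CPM in the mutant. No library of one group reached the range of the other. This gave a log2 fold change of 0.31 (standard error 0.04, 95% interval 0.22 to 0.39, adjusted p = 2.06e-06 by edgeR's quasi-likelihood test with Benjamini-Hochberg adjustment). Its exons share 223 bases with VRK3 and 245 with the long noncoding RNA gene ENSG00000269091, both on the opposite strand, and since the strand setting of the counting is not given, reads of these stretches cannot be assigned with certainty. Both were also higher in the mutant, with log2 fold changes of 0.24 for VRK3 (adjusted p = 0.00011) and 0.42 for ENSG00000269091 (adjusted p = 0.000752, both by edgeR's quasi-likelihood test with Benjamini-Hochberg adjustment), genes named here for the overlap after their values were seen.

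LSM11 (ENSG00000155858, chromosome 5), an Lsm protein found in the U7 ring and not in the spliceosomal one, had 42.6, 43.4 and 40.4 CPM in wild type and 39.9, 37.0 and 39.4 CPM in the mutant. The mutant libraries were all lower, by a margin of less than 1 SD. On the log2 scale the difference was -0.12 (95% interval -0.21 to -0.03, adjusted p = 0.0291 by edgeR's quasi-likelihood test with Benjamini-Hochberg adjustment), which missed the threshold. The value depended on scaling: it was 0.00 with library totals in place of TMM (adjusted p = 0.962 from edgeR) and -0.07 with upper quartile factors (adjusted p = 0.206 from edgeR). Over the libraries left out in turn it lay between -0.16 and -0.09, and the adjusted p from edgeR between 0.00913, without wild type replicate 3, and 0.17, without EAF1 mutant replicate 2.

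LSM10 (ENSG00000181817, chromosome 1), its partner in the ring, had 7.53, 9.79 and 9.19 CPM in wild type and 7.29, 9.32 and 8.11 CPM in the mutant. The groups overlapped, and the first library of each was the lowest. Its log2 fold change was -0.10 with a 95% interval of -0.29 to 0.09, and it was 0.01 with library totals in place of TMM. Single libraries moved it, to -0.22 without wild type replicate 1 (adjusted p = 0.0413 from edgeR), -0.19 without EAF1 mutant replicate 2, -0.03 without wild type replicate 2 and -0.02 without EAF1 mutant replicate 1.

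RNU7-1 (ENSG00000238923) had 81, 58 and 69 counts in wild type and 62, 53 and 66 counts in the mutant, which is 1.43, 1.15 and 1.29 CPM against 1.04, 0.953 and 0.956 CPM. The CPM values did not overlap and were lower in the mutant. The log2 fold change was -0.40 with a wide 95% interval of -0.73 to -0.06 (adjusted p = 0.047 by edgeR's quasi-likelihood test with Benjamini-Hochberg adjustment), which missed the threshold. The value was -0.28 with library totals in place of TMM (adjusted p = 0.155 from edgeR) and -0.40 with DESeq2 (adjusted p = 0.136 from DESeq2). With single libraries left out it lay between -0.48 and -0.32, and the adjusted p from edgeR between 0.0293 and 0.155. RNU7-1 had only 53 to 81 counts a library, and what size of difference could be detected at this depth was not tested.

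RNU7-1 lies within other genes. Of its 63 exon bases, 62 are also exon of C12orf57 on the same strand and 63 are exon of the long noncoding RNA gene ENSG00000272173 on the opposite strand, genes named here for that overlap after their values were seen. C12orf57 had 17.0, 14.4 and 17.2 CPM in wild type and 31.4, 32.0 and 31.9 CPM in the mutant, and ENSG00000272173 had 11.8, 9.83 and 11.2 against 20.8, 21.7 and 21.7 CPM. Both rose past the threshold, with log2 fold changes of 0.97 and 0.96, while RNU7-1 had a negative one. How reads in the shared bases were assigned is not given, so the count of RNU7-1 is uncertain. The 148 other RNU7 copies summed to 10.6, 9.89 and 8.30 CPM in wild type and 9.42, 9.14 and 8.46 CPM in the mutant, and these overlapped.

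**Figure D2:**
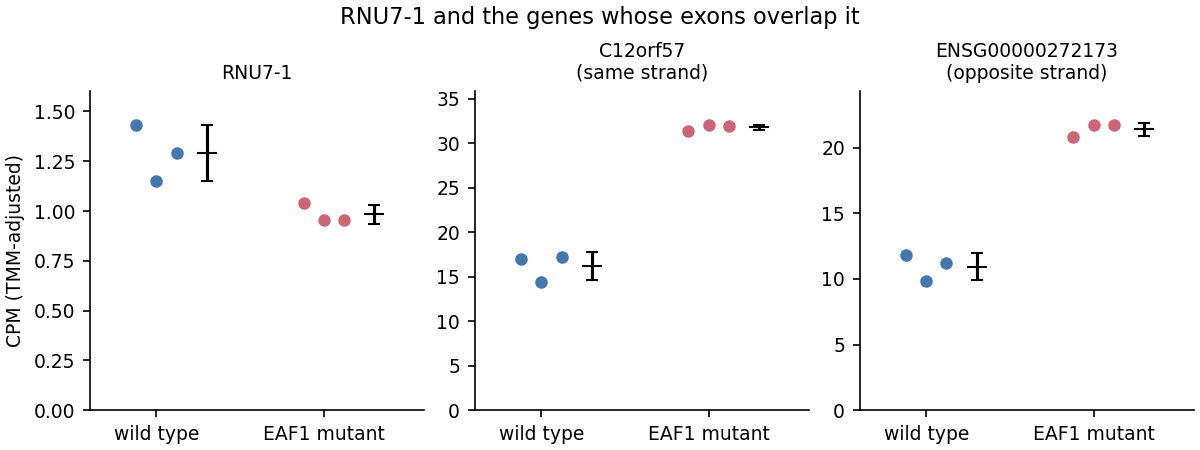
The panels plot RNU7-1, C12orf57 and the opposite-strand gene, with CPM adjusted by TMM on the vertical axis from 0, 1 point per library and the mean with the SD (n = 3) beside the points. RNU7-1 lies between 0.953 and 1.43 CPM, while both overlapping genes are higher in all 3 mutant libraries.

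ERI1 (ENSG00000104626), the exonuclease that trims the stem-loop, had 30.2, 32.7 and 30.5 CPM in wild type and 31.3, 30.9 and 31.3 CPM in the mutant. The mutant libraries lay within the wild-type range. The log2 fold change was 0.00 with a 95% interval of -0.09 to 0.10 (adjusted p = 0.966 by edgeR's quasi-likelihood test with Benjamini-Hochberg adjustment). With library totals in place of TMM it was 0.12 (adjusted p = 0.0311 from edgeR).

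To compare levels between genes, CPM was divided by the kilobases of merged exons. In wild type SLBP was highest, at 44.9 ± 0.315 CPM per kilobase (SD, n = 3). CASP8AP2 followed at 12.2 ± 0.618 and NPAT at 8.76 ± 0.149 CPM per kilobase (SD, n = 3). In the mutant these 2 scaffold genes stood at 9.15 ± 0.289 and 9.73 ± 0.153 CPM per kilobase (SD, n = 3), so that their order was the reverse of that in wild type. Next in wild type came LSM11 at 6.42 ± 0.233 and LSM10 at 5.87 ± 0.777 CPM per kilobase (SD, n = 3), neighbours whose libraries overlapped. ERI1, at 4.88 ± 0.215 CPM per kilobase, and ZNF473, at 4.19 ± 0.035 (SD, n = 3), did not overlap in wild type, and ERI1 was the higher. In the mutant ZNF473, at 5.18 ± 0.111 CPM per kilobase, was above ERI1, at 4.88 ± 0.032 (SD, n = 3). HINFP was lowest in both groups, at 1.98 ± 0.089 and 2.38 ± 0.0462 CPM per kilobase (SD, n = 3). RNU7-1 was left out of the order because its 63 bases are fewer than a fragment. Merged exons hold every annotated isoform, so a gene with long minor isoforms appears lower than it is.

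Each member was set beside the genes around it on the chromosome. The 12 protein-coding genes that start within 1 Mb of CASP8AP2 had a median log2 fold change of -0.02, and those of chromosome 6 had 0.03, while CASP8AP2 stood at -0.42. NPAT, at 0.15, lay among 12 genes with a median of -0.14, and HINFP, at 0.27, among 36 genes with a median of -0.10. For ZNF473, at 0.31, the 73 genes around it had 0.16 and chromosome 19 had 0.19, so its surroundings were higher too. ERI1, at 0.00, lay among 8 genes with a median of 0.63, of which 7 were higher. SLBP, at 0.03, lay among 27 genes with a median of 0.14. RNU7-1, at -0.40, lay among 45 genes with a median of 0.03. For LSM10, at -0.10, the 21 genes around it had 0.04, and for LSM11, at -0.12, the 8 genes around it had 0.04. Single neighbours varied widely, from -0.82 to 0.57 around CASP8AP2, from -1.05 to 0.35 around NPAT and from -2.96 to 1.14 around HINFP, so these members lay within the range of their neighbours. The part of position in the members' values was not tested.

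**Figure D3:**
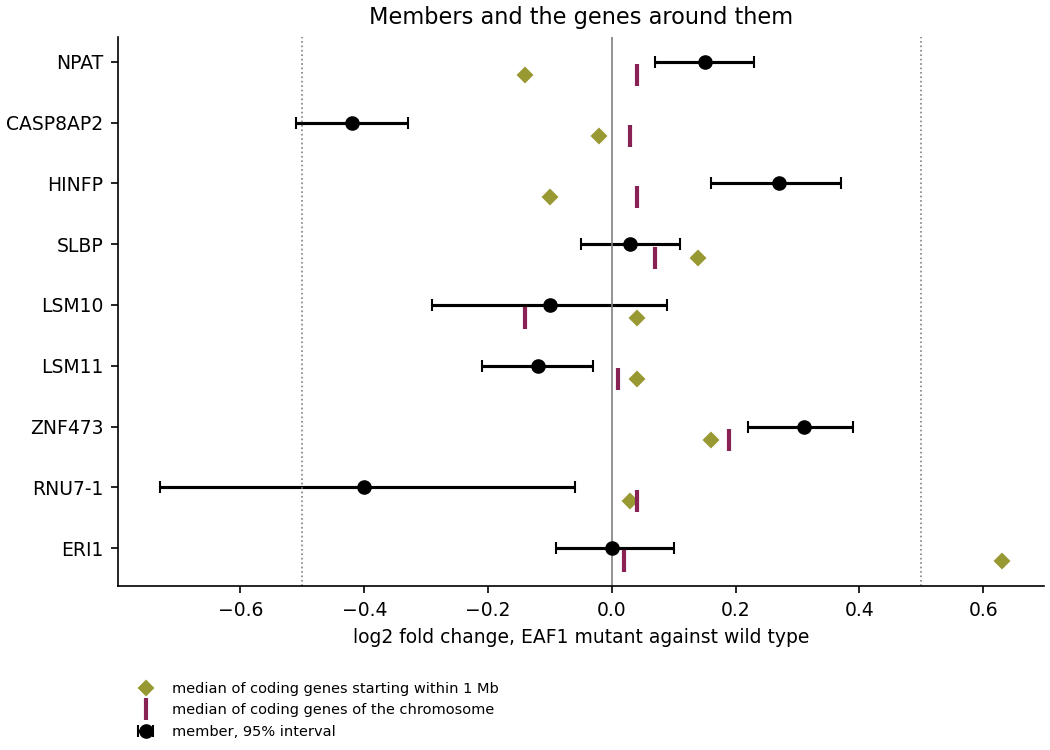
Each row is 1 member, the horizontal axis is the log2 fold change of EAF1 mutant against wild type, black points are members with 95% intervals, diamonds the median of protein-coding genes starting within 1 Mb and ticks that of the chromosome; dotted lines mark the fold minimum of 0.5. The intervals of NPAT, CASP8AP2, HINFP, LSM11, ZNF473, RNU7-1, SLBP and ERI1 do not include the median of their neighbours, and that of LSM10 does.

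The partners of each role were counted from lists. Of 14 activation partners, such as cyclin E, CDK2 and the NPAT-bound TRRAP and KAT5 acetyltransferase subunits, 0 passed the threshold in edgeR's test, against 20.3% of all tested genes, and 0 in DESeq2, against 18.0%. An adjusted p under 0.01 with any fold was found for 7 of them, against 41.5% of all tested genes, and an unadjusted p under 0.05 for 9, against 56.2%, and the median log2 fold change was -0.04. The largest in size was that of CDC25A, the phosphatase that activates CDK2, with 171, 171 and 167 CPM in wild type and 128, 121 and 125 CPM in the mutant. Its log2 fold change was -0.44, among 41 genes within 1 Mb on chromosome 3 with a median of -0.80. Of 13 cleavage and cap partners 0 passed in edgeR's test, against 20.3% of all tested genes, and 0 in DESeq2, against 18.0%. An adjusted p under 0.01 with any fold was found for 7 of the 13, against 41.5%, and an unadjusted p under 0.05 for 10, against 56.2%, and the median was 0.05. The largest in size was 0.34 for NELFB, a subunit of the pausing factor NELF, whose 67 neighbours had a median of 0.49.

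Among the lists of partner proteins, that of the Sm core and U7 assembly had the lowest median. Of its 16 genes 5 passed the threshold, all lower (31.2%, against 9.36% of all tested genes lower), 15 had a negative log2 fold change, and the median was -0.32. GEMIN2, a subunit of the SMN complex that loads Sm rings, had 33.4, 34.4 and 32.7 CPM in wild type and 17.5, 17.0 and 16.1 CPM in the mutant. This is a log2 fold change of -0.99, and the 5 genes around it had a median of -0.41. WDR77, the partner of the methyltransferase PRMT5, fell from 176, 174 and 180 CPM to 103, 96.1 and 100 CPM, a log2 fold change of -0.83, among 15 neighbours with a median of -0.19. SNRPE, an Sm ring protein shared by U7 and spliceosomal particles, had a log2 fold change of -0.82, among 19 neighbours with a median of -0.29. SNRPB, which encodes another shared ring protein, had -0.73, among 22 neighbours with a median of -0.55. GEMIN5, which recognizes the Sm site of the RNA, had -0.66, with neighbours at -0.01. For SMN1 and SMN2, near-identical genes, counts may be split between copies.

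Of 18 decay genes, 1 passed as higher and 2 as lower (16.7% in all, against 20.3% of all tested genes), with a median of 0.02. LSM3, of the Lsm ring that binds decaying histone mRNA, had 72.4, 76.0 and 72.5 CPM in wild type and 25.2, 25.5 and 23.3 CPM in the mutant. Its log2 fold change of -1.58 stood among 16 neighbours on chromosome 3, near EAF1, with a median of -1.69, all of them lower. DIS3, an exosome nuclease, had -0.55, among neighbours at -0.46. ERI3, a relative of ERI1, had 55.7, 52.9 and 56.1 CPM in wild type and 94.2, 91.1 and 94.8 CPM in the mutant, a log2 fold change of 0.77 among neighbours at 0.45.

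Of 10 genes for SLBP translation and turnover 3 passed, all lower (30.0%, against 9.36% of all tested genes lower), with a median of -0.10. DDX19B, an RNA helicase that acts with SLBP, had a log2 fold change of -0.69, with neighbours at -0.06. FEM1B, a substrate receptor of a CUL2 ubiquitin ligase, had -0.58, with neighbours at -0.41. CSNK2A1, the catalytic subunit of casein kinase 2, had -0.54, with neighbours at -0.57. With library totals in place of TMM, 1 of the 10 passed, against 6009 of the 28025 tested genes, of which 1840 were lower.

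The factors were set beside their targets and the cell cycle. The list of replication-dependent histone genes was the 90 genes of the authors' ChIP-seq signal table, pseudogenes among them. Of these 90, 71 were tested. Past the threshold 55 were lower and 12 higher, against 9.36% lower and 11.0% higher of all tested genes. Their median log2 fold change was -0.88, against 0.00 for the 9 factors. The higher genes included H2AC5P, H1-12P, H3C9P and H4C10P, with symbols that end in P as those of pseudogenes do. H3C7, an H3 gene, fell from 19.9, 17.2 and 19.5 CPM to 3.86, 3.74 and 2.94 CPM. H1-3, a linker histone gene, fell from 164, 164 and 175 CPM to 48.1, 47.3 and 46.0 CPM, and the pseudogene H2BC27P fell from 5.85, 6.29 and 6.52 CPM to 1.80, 1.78 and 1.93 CPM. At the other end H4C9 rose from 9.58, 12.8 and 11.6 CPM to 44.6, 43.0 and 43.9 CPM. H1-5 and H1-12P had the highest fold changes but at most 0.187 and 0.0561 CPM in wild type, so their size is poorly set. Counts of such near-identical genes are uncertain.

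Of 20 genes of G1/S and S phase 2 passed (10.0%, against 20.3% of all tested genes), and the median was 0.00. With library totals in place of TMM 4 of the 20 passed, against 6009 of the 28025 tested genes. An adjusted p under 0.01 with any fold was found for 13 of the 20, against 41.5% of all tested genes. By sign alone, 10 of the 20 had a negative log2 fold change. PCNA, the sliding clamp of DNA replication, fell from 224, 229 and 224 CPM to 135, 131 and 133 CPM, among 12 neighbours with a median of -0.66. E2F1, an activator of S phase genes, rose from 43.4, 40.3 and 43.8 CPM to 61.8, 62.3 and 63.8 CPM, among 20 neighbours with a median of 0.09. Of 16 G2/M genes 0 passed in edgeR's test, against 20.3% of all tested genes, and 0 in DESeq2, against 18.0%. An adjusted p under 0.01 with any fold was found for 10 of the 16, against 41.5%, and an unadjusted p under 0.05 for 13, against 56.2%. Of the 16, 14 had a negative log2 fold change, and the median was -0.15. Without wild type replicate 1 or 3, or without EAF1 mutant replicate 1 or 3, 1 of the 16 passed. The largest in size was KIF11, a mitotic kinesin, at -0.49, among 12 neighbours with a median of 0.20. These lists describe RNA levels, and the share of cells in S phase was not measured here.

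**Figure D4:**
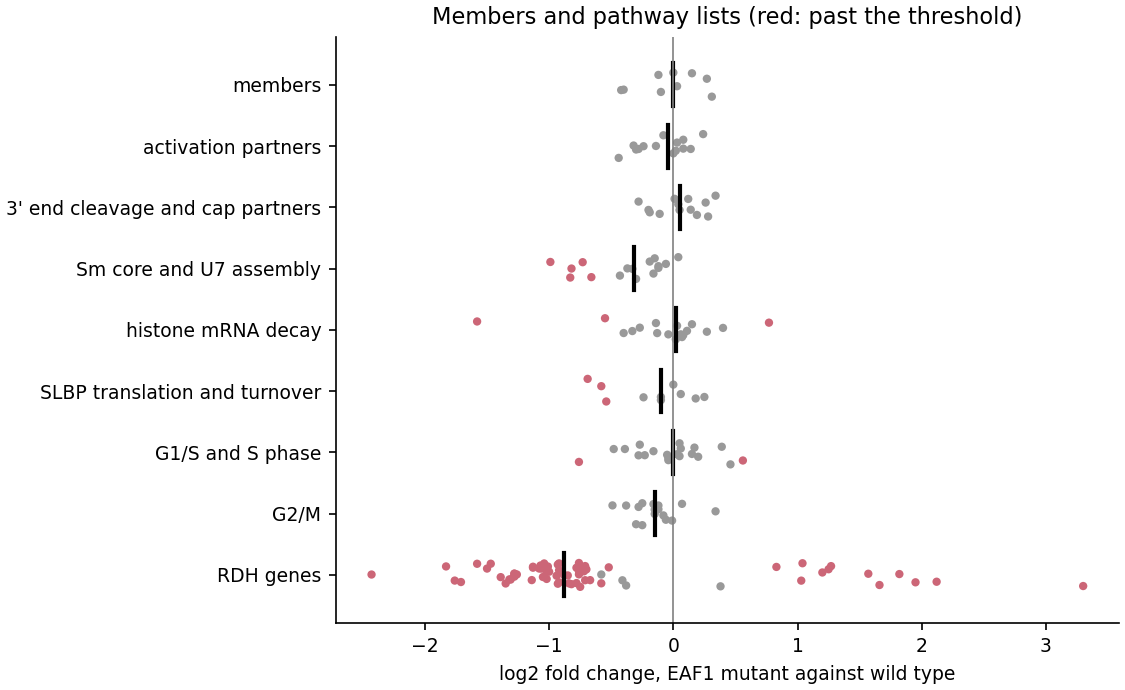
Each point is 1 tested gene, placed by its log2 fold change of EAF1 mutant against wild type (horizontal axis) in its list (rows), red where past the threshold, and the black line is the list's median. The 9 members center on 0.00 with none past the threshold, and the listed histone genes, pseudogenes among them, center on -0.88.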

How the data were processed

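Ribosomal RNA-depleted total RNA was sequenced from 3 wild-type and 3 EAF1-mutant HEK293T libraries, grouped by their labels; the other assays of the series were not analysed here. The authors trimmed and mapped paired-end reads to GRCh38 and deposited whole-number counts per Ensembl gene. The submitters' processing notes name bcl2fastq 2.18, Trimmomatic 0.38, HISAT2 2.3.4.1, R 4.0.2 and DESeq2 1.28.1. For trimming, the study's methods name Trim Galore instead, and which tool was used cannot be checked from the counts. They also name a stranded library kit and Rsubread as the counting tool. How the counting treated strand and multi-mapped reads is not stated in the labels or methods. The authors' table of ChIP-seq signal over histone genes was deposited as summed coverage, and only its list of 90 genes was used. All rows had an Ensembl gene identifier.

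Low counts were filtered with filterByExpr of edgeR 4.0.16 (R 4.3.3), which left 28025 genes, followed by TMM factors, the quasi-likelihood test and Benjamini-Hochberg adjustment over all tested genes. The biological coefficient of variation was 4.11%. A standard error is the log2 fold change divided by the square root of the test's F, and the 95% interval uses the test's degrees of freedom. Lists were described by counts and medians. Symbols, positions and exons came from GENCODE v44 (GRCh38). Ratios were tested in scipy 1.17.1, and the edgeR fit was tested on simulated data. Alternatives were DESeq2 1.42.0, other filters, scalings and thresholds, a replicate block and each library left out.

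Named were all 9 members, ATM, EAF1, and of each list every gene past the threshold, or the 3 highest and 3 lowest where over 6 passed, or the largest change where none did. No member passed, so the genes nearest to a member in pattern, a rule for those that pass, were not sought. The members and lists were chosen with earlier results of these data known. Surroundings of list genes were added after seeing the data. Of the markers of other cell types, 1 is not reported here.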

Additional observations from a re-analysis of the deposited data

How the results depend on the processing

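The count of 0 members past the threshold was the same under other filters, scalings, DESeq2, the replicate block, an adjusted p under 0.05 and with each library left out. With no fold minimum, 4 members, 5902 genes lower, 5736 higher and 11638 in all passed. Under the replicate block 5686 genes passed, against 5695, and 0 members. Same-numbered libraries did not deviate together over all tested genes (median correlation -0.00537). The labels do not say whether the numbers pair libraries, and this value alone does not settle it. The count of 4 members with any fold, whose alternatives were chosen after seeing the data, was 5 with library totals and 3 to 4 with single libraries left out.

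The median log2 fold change of the members was 0.02 with a mean of at least 1 CPM, 0.12 with library totals and 0.05 with upper quartile factors. Under the same settings the median of all tested genes was 0.01, 0.13 and 0.06. With single libraries left out the median of the members was -0.03 to 0.01. The sign turned for LSM10 with library totals (0.01), and for ERI1 without a filter (0.00) and with DESeq2 (0.00). With single libraries left out, ERI1 lay between -0.03 and 0.03. Its sign turned without wild type replicate 1 (-0.03), wild type replicate 3 (-0.03) or EAF1 mutant replicate 3 (0.00). None of these turned values passed the adjusted p threshold, and the cause was not tested. The depth of 53 to 81 counts limits what can be said of RNU7-1.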
